A study of Homo sapiens with 6 samples.

Results

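The genes described here build the nuclear lamina and its attachment to chromatin and to the inner nuclear membrane: LMNA, LMNB1, LMNB2, LBR, EMD, BANF1, SUN1, SUN2, TMPO and SYNE2. They were taken by symbol from a table of 78932 gene identifiers, each symbol matched 1 identifier, and all 10 were among the 18040 genes with enough reads to test. Poly(A) RNA was sequenced from HCC1937 cells, a human breast cancer line with a BRCA1 mutation and without estrogen receptor, progesterone receptor or HER2 amplification. Docetaxel, a drug of the taxane class that keeps microtubules from coming apart, was given at 8 nM for 24 h in 3 libraries. The other 3 are labelled as controls with no vehicle named, and a single cell line gave all 6.

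The lamina is a mesh of intermediate filaments under the inner nuclear membrane. A-type lamins come from LMNA, and B-type lamins from LMNB1 and LMNB2. LBR and the LEM-domain proteins emerin (EMD) and LAP2 (TMPO) hold chromatin at the membrane, LEM proteins through the DNA-binding protein BANF1. SUN1 and SUN2 span the inner membrane and bind nesprins such as SYNE2 in the outer membrane, forming the LINC complex that ties the lamina to the cytoskeleton. The envelope and lamina are taken apart in mitosis and rebuilt around the separated chromosomes, with BANF1 and LEM proteins recruited early.

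The libraries held between 38622062 and 41675186 counts. KRT8, KRT18 and KRT7, keratins of simple epithelia, were abundant and rose with docetaxel, and the 8 epithelial markers summed to 3293 to 3340 CPM with docetaxel and 2837 to 2934 CPM in control (counts scaled to the library total). KRT18 was not called without control replicate 1, without docetaxel replicate 3, or with offsets for GC content and gene length (log2 fold change 0.03, edgeR adjusted p = 0.726). KRT8 and KRT7 stayed called with offsets, at log2 fold changes of 0.13 and 0.18, against 0.23 and 0.37 without them. The KRT8 offset call was lost without control replicate 2 and without control replicate 3. EPCAM, KRT19 and CLDN3, also epithelial markers, had only 16, 25 and 10 reads over the 6 libraries, and CDH1 had 164, so the labelled epithelial origin shows in the keratins and not in EPCAM or CDH1. Markers of fibroblasts, immune, endothelial and fat cells summed to 148 to 155 CPM with docetaxel and 145 to 151 CPM in control. COL1A1 made up most of that, 8 of the 14 had too few reads to test, and 1, CD14, was called higher (edgeR adjusted p = 0.0377). The CD14 call was made in only 1 of 6 fits that left out 1 library, that without docetaxel replicate 1. It was not made with DESeq2, limma-voom, library-size scaling, no low-count filter, the replicate block or the GC and length offsets described below. The part of these marker changes in the results below was not tested. In RNA from whole cultures, fewer cells of a kind and less RNA per cell cannot be told apart.

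Docetaxel-treated cells had more LMNA, BANF1 and LMNB2 RNA and less LBR and TMPO RNA than controls. LMNA rose 1.24-fold, BANF1 1.17-fold and LMNB2 1.12-fold, while LBR and TMPO were at 0.75-fold and 0.88-fold of control. Thus 3 members rose, 2 fell and 5 were not called, where 17.0% of all tested genes were called, 9.14% higher and 7.82% lower (edgeR quasi-likelihood test, adjusted p under 0.05 over all genes). The docetaxel and control values did not overlap in 9 of the 10 members, against 32.0% of all tested genes. In 5 of these docetaxel lay above control, against 17.0% of tested genes, and in 4 below, against 15.0%. The median log2 fold change of the 10 genes was 0.01, as it was over all tested genes. Each of the 5 calls was also made in all 6 fits that left out 1 library and used no GC and length offsets. With the offsets described below, LMNB2 and TMPO were not called. BANF1 was then called in only 1 of 6 fits that left out 1 library.

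**Figure D1:**
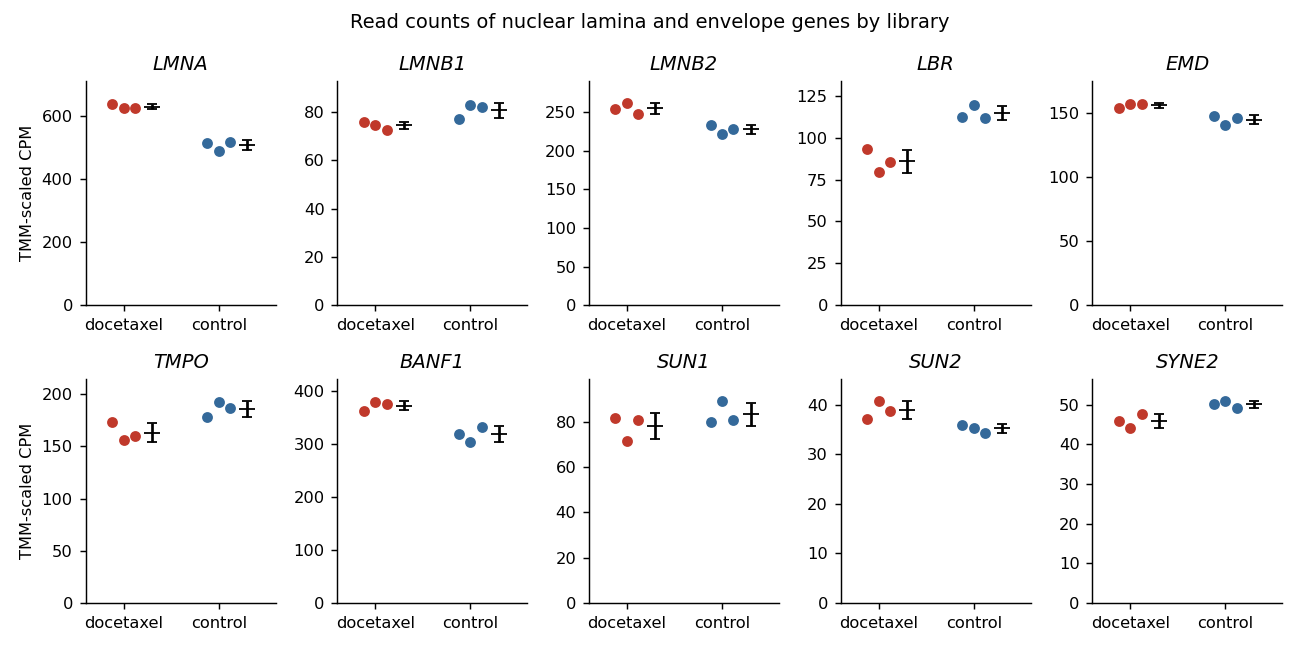
TMM-scaled CPM of the 10 genes in each library, docetaxel on the left and control on the right of each panel; the bar beside the points is the mean with its SD (n = 3 each). LMNA lay between 623 and 638 with docetaxel and between 488 and 516 in control, and only for SUN1 did the groups overlap.

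Among the filament genes, LMNA had the largest change. LMNA encodes lamins A and C, which gene counts do not tell apart (ENSG00000160789, GRCh38 chromosome 1, 156082573 to 156140089, plus strand). It had 638, 624 and 623 CPM in the docetaxel libraries, against 515, 488 and 516 CPM in the control libraries (CPM here and below are TMM-scaled). All 3 docetaxel libraries thus lay more than 100 CPM above the highest control library. The means were 628 ± 8 CPM with docetaxel and 506 ± 16 CPM in control (SD, n = 3 each), and the log2 fold change was 0.31 ± 0.04 (SE, adjusted p = 1.22e-06 by edgeR).

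LMNB2, the B-type lamin with the higher count, moved the same way but less (ENSG00000176619, chromosome 19, 2427638 to 2456996, minus strand). It had 254, 262 and 248 CPM with docetaxel, against 233, 221 and 228 CPM in control. The groups were separate and the change was 0.16 ± 0.04 on the log2 scale (SE, adjusted p = 0.00508 by edgeR). The 3′ end of LMNB2 overlaps TIMM13 on the same strand, so the split of reads there is uncertain. TIMM13 held 38041 reads over the docetaxel libraries, more than the 29318 of LMNB2, and 35418 over the control libraries.

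LMNB1, the other B-type lamin, was not called (ENSG00000113368, chromosome 5, 126776623 to 126837020, plus strand). It had 76.0, 74.7 and 72.7 CPM with docetaxel, against 77.3, 83.0 and 82.1 CPM in control. Every docetaxel value lay below every control value, although the gap between the nearest libraries was small. Its log2 fold change of -0.12 ± 0.05 (SE; 95% confidence interval -0.22 to -0.01) did not pass (edgeR adjusted p = 0.12). With scaling by library size alone it passed the test (edgeR adjusted p = 0.0368).

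Of the genes that tether chromatin, LBR changed most and downward. LBR encodes the lamin B receptor, a membrane protein that binds B-type lamins and heterochromatin and also acts as a sterol reductase (ENSG00000143815, chromosome 1, 225401502 to 225428925, minus strand). It had 93.2, 79.5 and 85.3 CPM with docetaxel, against 113, 120 and 112 CPM in control. The highest docetaxel library was well below the lowest control library. The log2 fold change was -0.41 ± 0.05 (SE, adjusted p = 3.31e-06 by edgeR), and it ran from -0.50 to -0.37 when 1 library at a time was left out.

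TMPO, which encodes the LAP2 proteins, membrane-bound forms and a nucleoplasmic form that binds A-type lamins, also fell (ENSG00000120802, chromosome 12, 98515512 to 98550379, plus strand). It had 174, 156 and 160 CPM with docetaxel, against 178, 193 and 187 CPM in control. Docetaxel replicate 1 lay close under control replicate 1, so the groups were only just separate. The log2 fold change was -0.19 ± 0.05 (SE, adjusted p = 0.00386 by edgeR), and gene counts do not show which LAP2 form changed.

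BANF1, a small protein that bridges DNA and binds LEM-domain proteins, rose (ENSG00000175334, chromosome 11, 66002079 to 66004149, plus strand). It had 362, 378 and 376 CPM with docetaxel, against 318, 303 and 332 CPM in control. The log2 fold change was 0.23 ± 0.04 (SE, adjusted p = 0.000261 by edgeR), and the lowest docetaxel library lay above the highest control library. The 5 BANF1 pseudogenes in the table held 67 reads with docetaxel, against 53 in control. EIF1AD lies across the BANF1 start on the opposite strand and the strand setting of the counting is not given, so reads in the shared stretch are uncertain.

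EMD encodes emerin, the LEM-domain protein lost in X-linked Emery-Dreifuss muscular dystrophy (ENSG00000102119, chromosome X, 154379197 to 154381523, plus strand). It had 154, 158 and 158 CPM with docetaxel, against 148, 141 and 147 CPM in control. The groups did not overlap, yet the edgeR adjusted p was 0.0844, at a log2 fold change of 0.11 ± 0.04 (SE).

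The LINC complex members were not called. SUN1 (ENSG00000164828, chromosome 7, 816615 to 896435, plus strand) had 81.8, 71.3 and 80.9 CPM with docetaxel, against 79.8, 89.0 and 80.5 CPM in control, and the groups overlapped. Its log2 fold change was -0.09 ± 0.06 (SE, adjusted p = 0.311 by edgeR). SUN2 (ENSG00000100242, chromosome 22, 38734725 to 38794143, minus strand) had 37.2, 40.9 and 38.8 CPM with docetaxel, against 36.0, 35.4 and 34.4 CPM in control. Its groups were separate by about 1 CPM, at a log2 fold change of 0.14 ± 0.07 (SE) and an edgeR adjusted p of 0.143.

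SYNE2, which encodes the giant nesprin-2 that links the envelope to actin (ENSG00000054654, chromosome 14, 63852983 to 64226433, plus strand), had 45.9, 44.0 and 47.6 CPM with docetaxel, against 50.03, 51.0 and 49.2 CPM in control. The docetaxel values lay below the control values, and the log2 fold change was -0.13 ± 0.06 (SE, adjusted p = 0.152 by edgeR). The 95% confidence intervals of the log2 fold changes were -0.21 to 0.02 for SUN1, 0.01 to 0.28 for SUN2 and -0.25 to -0.01 for SYNE2. SUN1, SUN2 and SYNE2 also overlap other genes in position, among them GET4 at SUN1, GTPBP1 and DNAL4 at SUN2 and ESR2 at SYNE2. Over the docetaxel libraries GTPBP1 held 5241 reads and DNAL4 1517, against 4487 for SUN2.

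Levels between genes are comparable only per length. Per kilobase of the deposited gene length, the order in the docetaxel libraries was BANF1, EMD, LMNA, LMNB2, LMNB1, TMPO, LBR, SUN1, SUN2 and SYNE2. BANF1 stood at 249 ± 6 CPM per kilobase with docetaxel and 213 ± 10 in control, and SYNE2 at 1.42 ± 0.06 with docetaxel and 1.55 ± 0.03 in control (SD, n = 3 each). With this length the order of the means was the same in control. LMNB1 and TMPO overlapped in both groups. TMPO and LBR overlapped in control and were separate with docetaxel. The deposited length counts every exon of a gene, 8568 bases for LMNA, whereas its transcript with the longest coding sequence has 3190. With such transcript lengths, which were added once values were known, LMNA was at 197 ± 3 with docetaxel and 159 ± 5 in control and came second, above EMD. TMPO then stood above LMNB1 in both groups and above LMNB2 in control, where those 2 overlapped, and LBR stood above LMNB1 in control only. With these lengths the order thus differed between the groups.

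The balance between lamina transcripts also differed between the groups. The ratio of LMNA to LBR per kilobase was 4.56, 5.23 and 4.87 in the docetaxel libraries, against 3.05, 2.72 and 3.08 in the control libraries. The groups were far apart, and the mean ratio was 1.66 times as high with docetaxel. The ratio of LMNA to LMNB1 plus LMNB2 was 1.08 ± 0.03 with docetaxel and 0.92 ± 0.02 in control (SD, n = 3 each). The ratio of LMNB2 to LMNB1 was 2.30 ± 0.05 with docetaxel and 1.90 ± 0.12 in control. The size of such ratios depends on the length used. With coding-transcript lengths LMNA to LBR averaged 8.76 with docetaxel and 5.29 in control, and LMNA to LMNB1 plus LMNB2 2.45 with docetaxel and 2.07 in control, so that LMNA lay above the B-type sum in both groups. The mean ratios with docetaxel were then 1.66 and 1.19 times those in control. These ratios combine genes whose changes were known and are given without a test. In many mammalian cell types A-type lamins and LBR are used as alternative tethers of heterochromatin, with LBR more prominent early in development and lamin A/C later.

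**Figure D2:**
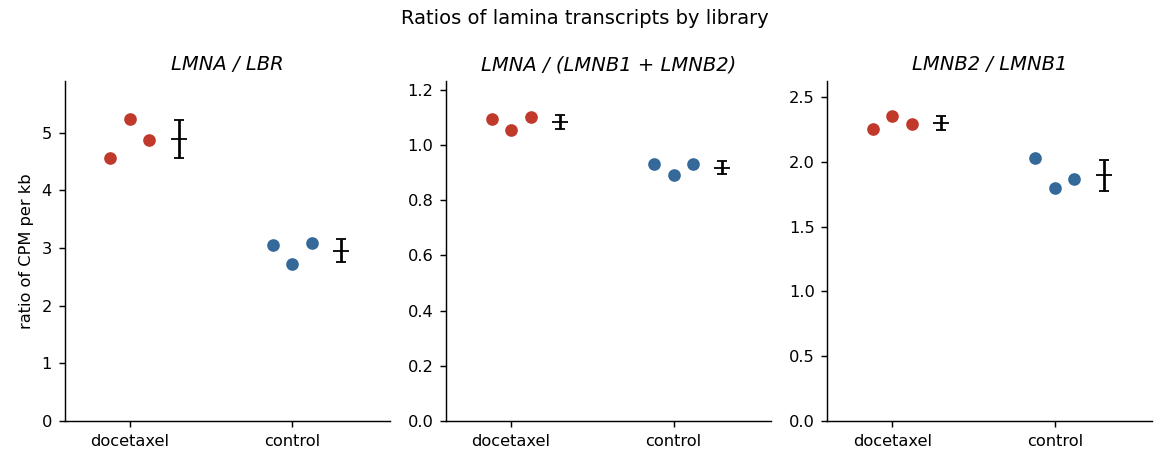
Ratios of TMM-scaled CPM per kilobase of deposited gene length in each library, docetaxel on the left and control on the right; the bar is the mean with its SD (n = 3 each). In each panel the docetaxel libraries lie above the control libraries, at 4.56 to 5.23 against 2.72 to 3.08 for LMNA over LBR.

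The direction of change went with the base composition of the transcripts, in these genes as in the whole table. GC content was taken from the longest GENCODE transcript, and its median was 60.2% among genes called higher and 39.5% among those called lower. LMNA, LMNB2, SUN2 and EMD had 61.5%, 61.4%, 60.8% and 59.97% GC and BANF1 55.2%, and the log2 fold change of each was above 0. LMNB1 and SUN1 had 51.1% and 49.3%, SYNE2, TMPO and LBR 42.9%, 41.4% and 37.8%, and the log2 fold change of each was below 0. Over the 10 genes, which share the same libraries, Spearman's rho between GC content and log2 fold change was 0.92, a description without a test.

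The first 20 codons of 4 called genes and LMNB1 are shown from GENCODE release 29 on GRCh38, because LBR stands apart from the others there; capitals mark a G or C at the third base of a codon, where synonymous codons differ most.
LMNB2: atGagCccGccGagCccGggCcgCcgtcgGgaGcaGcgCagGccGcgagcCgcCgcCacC
BANF1: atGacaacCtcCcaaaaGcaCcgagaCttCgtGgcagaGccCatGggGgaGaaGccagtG
LMNB1: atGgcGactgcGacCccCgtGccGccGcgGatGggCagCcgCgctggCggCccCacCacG
TMPO: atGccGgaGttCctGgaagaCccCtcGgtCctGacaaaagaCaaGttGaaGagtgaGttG
LBR: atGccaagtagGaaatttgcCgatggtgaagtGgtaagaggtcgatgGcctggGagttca

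Of the 20 capitals possible, 18 were present in LMNB2, 15 in BANF1, 18 in LMNB1, 16 in TMPO and 6 in LBR. Over the whole coding sequence the share was 89.5% in LMNB2, 80.1% in LMNA and 69.7% in BANF1, which rose. It was 43.9% in LBR and 39.8% in TMPO, which fell, and 54.6% in LMNB1. The starts did not divide the genes by direction, since LMNB1 and TMPO had as many capitals as LMNB2 or more than BANF1, and both are richer in GC there than over their whole coding sequence. SUN2, EMD, SUN1 and SYNE2 had 76.2%, 68.1%, 64.4% and 45.5%.

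**Figure D3:**
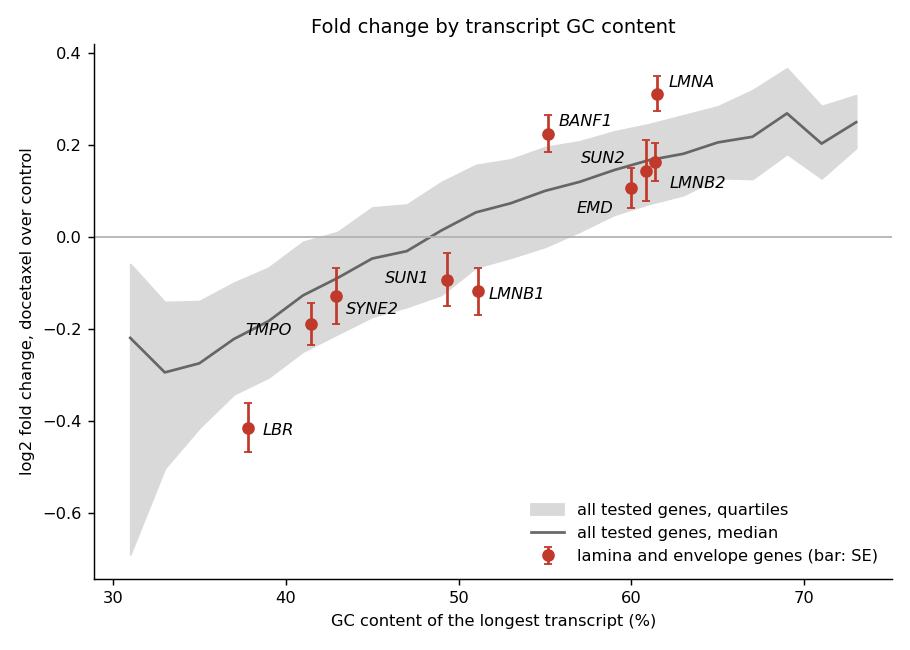
Log2 fold change of docetaxel over control against the GC content of the longest transcript; red points are the 10 genes with their SE, the line and band the median and quartiles of tested genes in bins of GC content. LMNA (0.31) and BANF1 (0.23) lie above the band, and LMNB1 (-0.12) and LBR (-0.41) below it.

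Against genes of like composition, within 2 percentage points of GC, 4 of the 10 members lay outside the quartiles of the fold changes, where by construction 50% of genes lie. For LMNA the 1622 such genes had a median log2 fold change of 0.17 with quartiles of 0.08 and 0.25, against 0.31 for LMNA itself. For BANF1 the median of 2039 genes was 0.10 with an upper quartile of 0.20, against 0.23. For LBR the median of 1798 genes was -0.20 with a lower quartile of -0.32, against -0.41. For LMNB1 it was 0.05 over 2187 genes with a lower quartile of -0.08, against -0.12. The LMNB1 transcript with the longest coding sequence has 47.7% GC, and genes in the bin centred at 47% had a lower quartile of -0.15. The place of LMNB1 outside the quartiles, and the count of 4 with it, thus depends on the transcript used. LMNB2, SUN2 and EMD were within 0.05 of the median of their GC band, SYNE2 0.04 below its own, and TMPO and SUN1 0.07 and 0.11 below theirs.

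Offsets that remove each library's own trend with GC content and gene length left 4.51% of 16421 genes called, 2.56% higher and 1.95% lower. Of the 10 genes, 2 were higher and 2 lower. LMNA stayed higher at a log2 fold change of 0.15 ± 0.03 (SE, adjusted p = 0.00267 by edgeR), and LBR lower at -0.20 ± 0.04 (SE, adjusted p = 0.00339 by edgeR). Both were also called in all 6 offset fits that left out 1 library. LBR was then at 0.87-fold of the control level. The fitted LMNA to LBR ratio was 1.28 times that of control with offsets, against 1.65 times without.

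BANF1 was also called higher with offsets (log2 fold change 0.11 ± 0.03, SE, adjusted p = 0.0449 by edgeR), but in only 1 of the 6 offset fits that left out 1 library, that without docetaxel replicate 2. LMNB1 was called lower with offsets (-0.16 ± 0.05, SE, adjusted p = 0.0441 by edgeR). That call was made in 2 of 6 fits, those without control replicate 1 and without docetaxel replicate 1. It was not made when GC content came from the longest protein-coding transcript (-0.10, edgeR adjusted p = 0.245). LMNB2 and TMPO were no longer called, at log2 fold changes of -0.01 and -0.05 (edgeR adjusted p of 0.961 and 0.517). EMD and SUN2 changed sign, to -0.06 and -0.01.

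**Figure D4:**
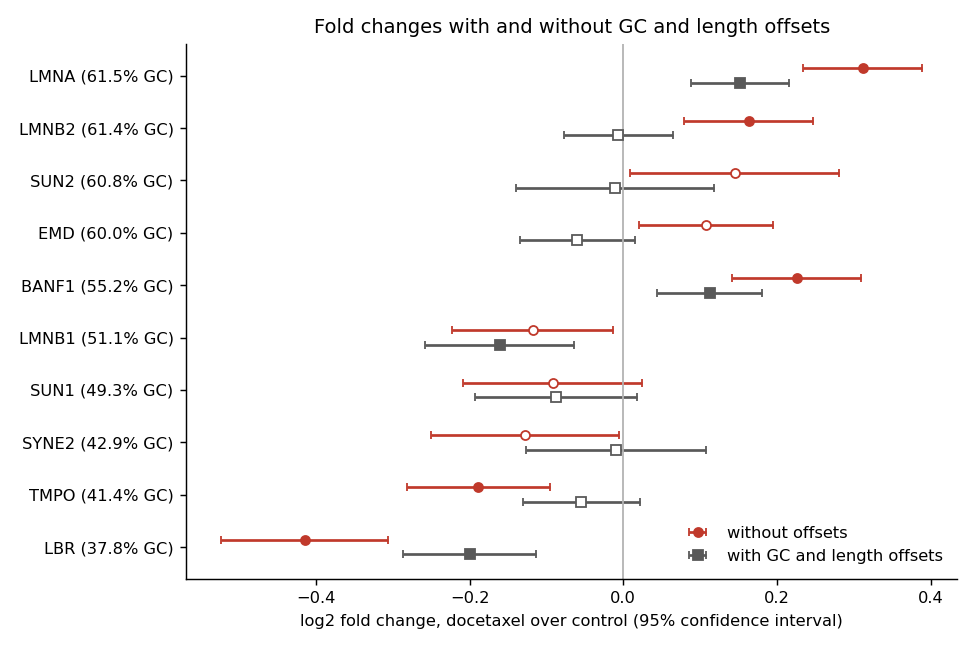
Log2 fold change of docetaxel over control with its 95% confidence interval for each gene, ordered by transcript GC content; red circles are without and grey squares with GC and length offsets, and filled symbols have an adjusted p under 0.05. LMNA (0.31 and 0.15) and LBR (-0.41 and -0.20) are filled in both fits, and LMNB2 moves to -0.01 with offsets.

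The regions before the gene starts, compared next, did not divide these genes the same way. RefSeq start windows on GRCh38.p14, 250 bases before to 50 after the start, were listed for 9 of the 10 genes, 17 windows in all, with none for SUN1. Shown are the 100 bases before the listed start of called genes, for LMNB2 and BANF1, which rose, and LBR and TMPO, which fell (for TMPO the first of 2 listed starts). LMNA, with 3 listed starts, is described by counts. Capitals mark the box bound by NF-Y (CCAAT) or the box bound by SP1 (GGGCGG) on either strand, and no 2 matches overlap here.
LMNB2, chr19:2456960-2457059, minus strand: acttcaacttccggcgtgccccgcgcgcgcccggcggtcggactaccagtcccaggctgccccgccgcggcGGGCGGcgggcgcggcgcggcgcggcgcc
BANF1, chr11:66002403-66002502, plus strand: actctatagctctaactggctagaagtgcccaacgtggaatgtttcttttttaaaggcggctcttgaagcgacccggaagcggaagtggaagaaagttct
TMPO, chr12:98515473-98515572, plus strand: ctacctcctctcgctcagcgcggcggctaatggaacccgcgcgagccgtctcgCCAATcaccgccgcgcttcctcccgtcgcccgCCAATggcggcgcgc
LBR, chr1:225428822-225428921, minus strand: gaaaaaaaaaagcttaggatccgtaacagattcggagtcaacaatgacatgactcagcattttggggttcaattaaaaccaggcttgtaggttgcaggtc

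The wider GENCODE gene spans begin within or before these windows. Over the 300 bases, the LMNB2 and TMPO windows had 67.7% and 65.0% GC, although one gene rose and the other fell. BANF1 had 58.7% and LBR 38.3%, with 8 CpG dinucleotides in the LBR window and 38 in that of LMNB2. TMPO held 2 NF-Y boxes and 1 SP1 box, LMNB2 held 0 and 1, and BANF1 and LBR 0 of each. Of all 35116 RefSeq windows of that length, 34.6% held an NF-Y box and 45.0% an SP1 box. The letters of the cell cycle homology region (TTTGAA) were in 15.2% of windows, once at LMNB2 and once in the first of 3 SUN2 windows. A loose form of the E2F site (TTTNNCGC) was in 6.89% of windows and in 0 of the 4 shown, but once in the first of 3 LMNA windows and in 2 of 3 SYNE2 windows. The LMNA windows had 66.3% to 69.0% GC and held 1, 1 and 2 SP1 boxes, with 1 NF-Y box in the first. A match is a run of letters and not a bound site.

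Genes with the most similar profile over the 6 libraries were taken by the smallest root mean square difference of centred log2 CPM among 10291 candidates. For LMNA these were PYCR1 and MIIP, at 0.012 and 0.015 log2 units. For LBR they were EBLN3P and SUZ12, at 0.026 and 0.027. The nearest to LMNB2 were TRAFD1 and ELK1, to BANF1 PBX2 and THAP4, to TMPO OPA1 and ZFR, and to LMNB1 RAC1 and YY1, all between 0.010 and 0.016. The neighbours of LMNA had 61.8% and 65.2% GC and those of LBR 40.4% and 38.03%. Those of LMNB2 (61.4% GC) had 54.3% and 56.99%, those of LMNB1 (51.1%) 44.6% and 48.4%, and those of BANF1 (55.2%) 54.4% and 62.99%. Those of TMPO (41.4%) had 38.4% and 42.1%, so near profiles came with GC contents up to 8 percentage points apart.

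Other parts of the nuclear envelope showed changes in both directions, as did all tested genes. Beside the counts by list below, 9.14% of all tested genes were called higher and 7.82% lower. With offsets these shares were 2.56% and 1.95%, and no list was tested against them. By list, the median GC content was at least 53.1% among members called higher and at most 43.4% among those called lower. Fits that left out 1 library are those without offsets here, unless offsets are named. Of 11 tested LINC partners and envelope regulators (13 listed), 2 rose and 3 fell, with a median log2 fold change of 0.05. TOR1AIP1 and TOR1AIP2, membrane proteins that activate torsin ATPases, fell by 0.25 and 0.15 on the log2 scale, and NEMP1, an inner membrane protein, fell by 0.25. TOR1AIP1 and NEMP1 were not called without docetaxel replicate 3, NEMP1 also not without control replicate 2, and TOR1AIP2 not without control replicate 3. SYNE4, a nesprin of low count, was at 2.08 ± 0.14 CPM with docetaxel and 1.10 ± 0.19 CPM in control (SD, n = 3 each, edgeR adjusted p = 0.0194). FHOD1, a formin that binds nesprin-2, was at a log2 fold change of 0.16 (edgeR adjusted p = 0.0269). SYNE4 and FHOD1 were each called in only 1 of 6 fits that left out 1 library, SYNE4 without control replicate 1 and FHOD1 without docetaxel replicate 3. With offsets 0 of the 11 were called.

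Of 16 genes listed as LEM-domain and other inner nuclear membrane proteins, 3 rose and 1 fell, with a median log2 fold change of 0.07. The list is broad, and DHCR7 and NCLN in it encode membrane proteins of the endoplasmic reticulum. LEMD3, a LEM-domain protein that binds SMAD factors, fell by 0.40 on the log2 scale, to 15.1 ± 2.4 CPM with docetaxel, against 19.95 ± 0.29 CPM in control (SD, n = 3 each, edgeR adjusted p = 0.00485). DHCR7, a sterol reductase, NCLN and NRM, which encodes nurim, rose by log2 fold changes of 0.19, 0.17 and 0.24. Without docetaxel replicate 3 LEMD3, DHCR7 and NRM were not called, and NRM was also not called without control replicate 1 or 2. With offsets 0 were higher and 1, TMEM120A, was lower, also in all 6 offset fits that left out 1 library.

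Of the 5 enzymes that process lamin tails, 1 fell and 0 rose. ZMPSTE24, the protease that cuts prelamin A to mature lamin A, was at 75.3 ± 11.3 CPM with docetaxel and 101.9 ± 7.4 CPM in control (SD, n = 3 each). Its log2 fold change was -0.44 ± 0.11 (SE, adjusted p = 0.0355 by edgeR), and with offsets -0.24 (edgeR adjusted p = 0.0244). It was not called with library-size scaling, nor when control replicate 1, control replicate 2 or docetaxel replicate 2 was left out. With offsets the call was lost without any of these libraries and without docetaxel replicate 3, 4 of the 6 fits. FNTA, FNTB, RCE1 and ICMT, which add the farnesyl group, trim the tail and methylate it, had log2 fold changes between -0.04 and 0.13 and were not called.

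Of 15 chromatin, kinase and phosphatase partners of the lamina and BANF1, 2 rose and 1 fell, and all 3 calls were made in each of the 6 fits without offsets that left out 1 library. PPP2R1A, the scaffold subunit of phosphatase PP2A, which acts on BANF1, rose by 0.22, and CTDNEP1, a membrane phosphatase that acts on lipin, by 0.17 on the log2 scale. CBX3, a heterochromatin protein of the HP1 family, fell by 0.18. With offsets PPP2R1A alone was called, higher (log2 fold change 0.15, edgeR adjusted p = 0.00339), and that call was lost without control replicate 2. VRK1 and VRK2, kinases that release BANF1 from DNA, had log2 fold changes of -0.13 and -0.17 and were not called (edgeR adjusted p of 0.310 and 0.474).

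Of 31 nuclear pore genes 2 rose and 4 fell, a share near that of all genes, and their median log2 fold change was -0.04. NUP58, a subunit of the central channel, was lowest at -0.59 ± 0.13 (SE, adjusted p = 0.0179 by edgeR) and was also lower with offsets (-0.34, edgeR adjusted p = 0.00848). AAAS, which encodes aladin, rose by 0.20 and AHCTF1, the ELYS protein that starts pore assembly on chromatin, fell by 0.22 on the log2 scale. NDC1, a membrane nucleoporin, fell by 0.14. The AHCTF1 call was lost without control replicate 2 and without docetaxel replicate 3, the NDC1 call without control replicate 2 and without control replicate 3. With offsets 2 were higher and 2 lower, TPR and AAAS higher, NUP58 and NUP210 lower. All 4 of these offset calls were lost without control replicate 2, and NUP58, TPR and AAAS also without docetaxel replicate 3. NUP210 was also lost without docetaxel replicate 1 or 2, TPR and AAAS without control replicate 3, and AAAS without control replicate 1 or docetaxel replicate 2.

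Of 15 genes of ESCRT-III and its partners, which act in sealing holes in the re-forming envelope, 2 rose and 2 fell. Those that fell, SPAST and VPS4B, encode ATPases that act with ESCRT-III and are not its subunits. CHMP1A rose by 0.25 and CHMP4B by 0.17, and SPAST, a microtubule-severing ATPase, fell by 0.40 and VPS4B by 0.25 on the log2 scale. CHMP1A and SPAST were called in all 6 fits that left out 1 library. The CHMP4B call was lost without control replicate 1, docetaxel replicate 2 or docetaxel replicate 3, and the VPS4B call without any of these or control replicate 3. With offsets 0 were called, with SPAST at -0.23 (edgeR adjusted p = 0.0527).

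Of 18 mitotic genes 4 rose and 3 fell, with a median log2 fold change of 0.02. CDC20 and AURKB rose by 0.23 and 0.18, and CDK1, the kinase that phosphorylates lamins at mitotic entry, fell by 0.22 and TOP2A by 0.16 on the log2 scale. CDK1 was not called without control replicate 2. With offsets 3 were higher, CCNB1, CENPF and TPX2, and 0 lower. All 3 offset calls were lost without control replicate 2, CCNB1 and TPX2 also without docetaxel replicate 3, and TPX2 was called only without docetaxel replicate 1. The part of these mitotic genes in the lamina changes was not tested.

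**Figure D5:**
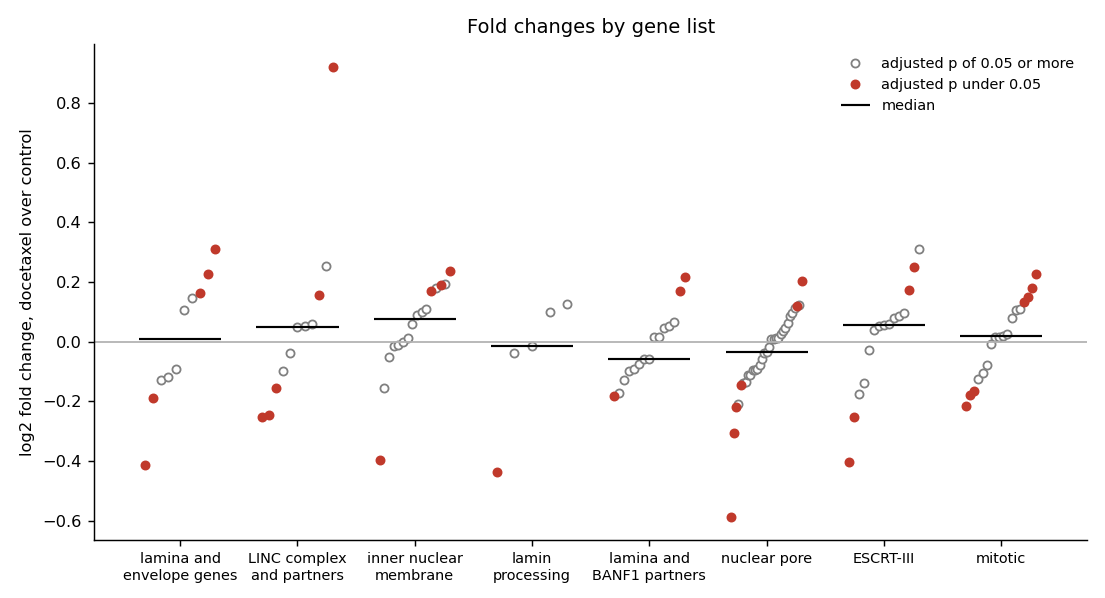
Log2 fold change of docetaxel over control for each tested gene of the 10 lamina and envelope genes and of 7 other gene lists; filled red points have an edgeR adjusted p under 0.05 and lines are medians. List medians lie between -0.06 and 0.07, with called genes on both sides of 0 in each list except lamin processing, where only ZMPSTE24 (-0.44) was called.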

How the data were processed

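The authors deposited raw read counts per Ensembl gene for 78932 identifiers, with a gene length column. Counting used featureCounts 2.0.1 on GRCh38, with quality reports by MultiQC 1.11, per the submitters' processing notes. The libraries were poly(A)-enriched and read as pairs of 150 bases, per the labels. Which aligner, annotation release, strand setting and rule for multi-mapping reads were used is not given in the labels or notes. Columns were matched to samples by library name. The labels call the replicates biological without naming separate cultures or days. The p-values thus set the difference between the groups against the spread among these 6 libraries only.

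Genes were tested with edgeR 4.0.16 in R 4.3.3 (filterByExpr, TMM scaling, robust quasi-likelihood fit, two-sided test), with Benjamini-Hochberg adjustment over 18040 genes. A standard error is the size of the log2 fold change over the square root of its F statistic. Symbols matched 61481 identifiers. Coordinates and GC content came from GENCODE release 29 (GC for 91.0% of tested genes and all members). Offsets were loess curves (span 0.5), fitted per library to the gap between a gene's log2 CPM and its mean over libraries, against GC content and log2 length. Genes without GC content were left out there. The alternatives were 3 other scalings (RLE, upper quartile, library size), DESeq2 1.42.0, voom in limma 3.58.1, other low-count filters, a replicate block, the offsets, and leaving out each library.

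The members, gene lists, tests and naming rule were chosen with earlier results of these data known. The rule named all members, up to 4 genes with the smallest p per list, the markers and the 2 nearest profiles of a member. PPP2R2A and marker genes given only in sums are not named. FHOD1, FNTA, VRK1, VRK2 and genes called only with offsets were chosen after their values were seen. Deviations of same-numbered libraries correlated at 0.010 to 0.015, so numbers were not taken as pairs. A count of 0 allows up to 3 counts, 0.072 to 0.078 CPM, for counting error only. A coding start of 1 member is not reported here.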

Additional observations from a re-analysis of the deposited data

How the results depend on the processing

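In 60 member results without offsets and without 1 library, every direction and call of the 10 genes was kept. The other scalings, DESeq2, limma-voom, other filters and the replicate block changed 1 of 80, the LMNB1 call gained with library-size scaling. With the replicate block 3 members were higher and 2 lower, and 1283 and 1106 of all genes, and although each of the 3 docetaxel libraries correlated best with the control of its number, the correlations were near 0. The offsets for GC content and gene length moved most. LMNB2 reversed to -0.0063 with them, -0.0065 with the block added and -0.0024 with GC content of protein-coding transcripts, and EMD to -0.0596, -0.0596 and -0.0592. SUN2 reversed to -0.0107, -0.0107 and -0.0076. Over all fits without 1 library, with and without offsets, LMNB2 ran from -0.0224 to 0.182, EMD from -0.070 to 0.119, SUN2 from -0.042 to 0.160 and SYNE2 from -0.156 to 0.018.

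With offsets and block, 1 member was higher (LMNA) and 1 lower (LBR), and with protein-coding transcripts 2 higher and 1 lower. Of all genes, 420 were higher and 321 lower with offsets, 274 and 212 with the block added, and 336 and 315 with protein-coding transcripts. Library-size scaling gave 1096 higher and 1866 lower, against 1649 and 1410. Without 1 library, 108 to 1397 genes were higher and 89 to 1841 lower, 1 to 3 members higher and 1 to 2 lower, the low ends with offsets. Without offsets, control replicate 2 gave 990 and 740, docetaxel replicate 2 1089 and 968, and docetaxel replicate 3 1056 and 768 when left out. Outside the members and markers, 11 of 30 list calls were made in all 6 fits that left out 1 library, and with offsets 1 of 10. With 3 libraries a group, changes of low-count genes such as SYNE4 are the least certain. The cause of these differences was not tested.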
